A study of Mus musculus with 4 samples.

Results

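The Hox genes are the 39 homeobox transcription factor genes of the HoxA, HoxB, HoxC and HoxD clusters, and they were taken by symbol from a table of 36144 gene rows measured in mouse colonoids. HoxA held 11 of them, HoxB 10, HoxC 9 and HoxD 9. Hox proteins give cells along the head-to-tail axis of the embryo their positional identity. Within each cluster the genes lie in the order of the body regions in which they act, so that members with low numbers, at the 3′ end, are expressed further forward and members with high numbers, at the 5′ end, further back. Genes with the same number in different clusters are paralogues. The lining of the adult gut keeps a Hox pattern that differs along its length, which is why these genes are used as markers of position in the intestine.

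Expression was read by bulk RNA-seq from colonoids, which are 3-dimensional cultures of mouse colonic epithelium grown from crypts in Matrigel. There was 1 library for each of 4 conditions, namely untreated at 48 h, 2 mM sodium butyrate at 48 h, untreated at 72 h and 2 mM sodium butyrate at 72 h, which the labels name day 2 and day 3. All 4 came from organoids at passage 3 of a male mouse aged 24 weeks, kept in medium with EGF, Noggin, R-spondin, the GSK3 inhibitor CHIR99021, the ROCK inhibitor Y-27632, B27 and N2. The labels give the genotype as WT, whereas the methods of the study describe cultures of Hes1-GFP reporter mice. In those methods the distal colon was discarded and crypts were taken from the proximal colon. Butyrate is a short-chain fatty acid that gut bacteria make from fibre, and it inhibits histone deacetylases. Because conditions were not replicated, differences could not be compared with replicate error, and no p-value was computed. Intervals are 95% exact (Clopper-Pearson) intervals from the pair of counts and cover counting error only.

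Library totals lay between 20790225 and 24207840 counts, and mitochondrial genes took 14.1% to 18.4% of them. A count of 0 allows up to 3 counts, which is 0.124 to 0.144 CPM (a count scaled to the library total) in these totals. The epithelial identity of the cultures was checked with 11 epithelial marker genes, all of which passed the expression filter and which summed to between 220255 and 324538 counts per library. The defining fibroblast genes *Col3a1* and *Lum* had 0 counts in every library, and *Dcn* had 1 or 2, while *Col1a1* had 0 to 12. The summed counts of the 8 stromal markers were 212 to 258, nearly all from *Thy1* with 119 to 149, *Pdgfrb* with 55 to 105 and *Pdgfra* with 9 to 13, and those of 4 smooth muscle markers 9 to 14. Of the enteric neuron and glia markers, *Sox10* and *S100b* had 0 counts throughout. The 6 immune markers summed to 589 (untreated) versus 267 (butyrate) counts on day 2, then 643 versus 353 on day 3, and this sum was lower with butyrate at both times. Most of these counts were of *Cd14*, with 534 versus 221 and 579 versus 287, while the defining leukocyte gene *Ptprc* had 5 to 15 and the T cell gene *Cd3e* at most 3. The macrophage gene *Csf1r* went the other way on day 3, with 0 versus 16 counts, and the myeloid gene *Itgam* gave 48 versus 36, then 41 versus 43. The 4 endothelial markers summed to 71 versus 128 on day 2, then 81 versus 88 on day 3, with at most 1 count of *Cdh5*. The near-equal sum on day 3 came from members of this list that went in opposite directions. Within the epithelial list, 7 of the 11 markers differed with butyrate in opposite directions at the 2 times with counting intervals that left out 0. Of these, 4 differed by at most 0.24 on the log2 scale, and the other 3 are given, chosen after their values were seen. The colonocyte gene *Car1* gave 19941 (untreated) versus 49510 (butyrate) counts on day 2, but 35077 versus 17453 on day 3, and the stem cell gene *Lgr5* gave 7380 versus 4341 on day 2, but 5108 versus 8068 on day 3. *Krt20*, a keratin of differentiated surface cells, gave 2365 versus 3294 on day 2, but 2637 versus 1439 on day 3. The part of these markers in the Hox values was not tested. In bulk RNA, fewer cells of a type and less RNA per cell cannot be told apart.

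The upstream sequences of 3 members are shown because they include an expressed and a near-silent member of the same cluster and, of the 3 HoxB genes with a window here, the one with the most matches to a caudal-type motif. Each run is the 250 bases before the RefSeq start of the gene in GRCm38.p6, 5′ to 3′ on the coding strand. Capitals mark matches on either strand to TTTATNG, the core letters of caudal and Abdominal-B type homeodomain sites, or to GGGCGG, the GC box. The windows are chr2:74704365-74704614 (+) for *Hoxd8*, chr2:74674763-74675012 (+) for *Hoxd12* and chr11:96281655-96281904 (+) for *Hoxb8*.
Hoxd8: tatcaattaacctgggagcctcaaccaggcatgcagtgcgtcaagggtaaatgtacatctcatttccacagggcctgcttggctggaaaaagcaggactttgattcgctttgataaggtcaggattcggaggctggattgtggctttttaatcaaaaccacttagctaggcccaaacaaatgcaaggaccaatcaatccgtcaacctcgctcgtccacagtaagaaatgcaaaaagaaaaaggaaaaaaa
Hoxd12: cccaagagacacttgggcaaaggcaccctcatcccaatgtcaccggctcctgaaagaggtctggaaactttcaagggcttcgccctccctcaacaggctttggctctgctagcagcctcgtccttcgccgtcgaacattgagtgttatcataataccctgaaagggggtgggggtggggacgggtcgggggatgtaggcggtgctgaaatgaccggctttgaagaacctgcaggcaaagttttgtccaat
Hoxb8: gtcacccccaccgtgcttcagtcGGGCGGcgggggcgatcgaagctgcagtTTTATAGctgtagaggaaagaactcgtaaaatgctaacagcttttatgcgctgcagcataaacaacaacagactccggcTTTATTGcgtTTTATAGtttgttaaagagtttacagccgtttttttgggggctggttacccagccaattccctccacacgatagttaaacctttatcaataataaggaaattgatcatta
*Hoxd8* was expressed in all libraries and *Hoxd12* had 1 count in a single library, yet neither window held a match to either motif, and CpG dinucleotides numbered 6 in *Hoxd8* and 10 in *Hoxd12*. The *Hoxb8* window held 3 matches to the caudal-type letters, 1 GC box and 12 CpG dinucleotides. RefSeq windows were matched for 22 of the 39 genes, in 24 windows. The caudal-type letters stood in 2 of the 24, those of *Hoxb8* and *Hoxd4*, which is 8.33% against 9.81% of 32851 windows of all genes. The GC box stood in 41.7% of the Hox windows and 32.7% of all windows. The median number of CpG dinucleotides was 12.5 in the Hox windows and 6 in all windows, and within the Hox windows it was 12 for expressed and 13 for the other members. These are matches of letters and were not tested as binding sites.

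A Hox gene was called expressed where it had more than 10 counts in at least 2 of the 4 libraries, the filter that the methods of the study applied to all genes. By this rule 24 of the 39 Hox genes were expressed, where 13979 of all 36144 gene rows passed. Of the 24, 23 had more than 10 counts in all 4 libraries. *Hoxc9* passed only through its 72 h libraries. In HoxA all 11 members passed and in HoxB 9 of 10, whereas in HoxC 1 of 9 and in HoxD 3 of 9 passed. The HoxA genes span 52155590 to 52260880 of chromosome 6 and the HoxB genes 96194316 to 96368256 of chromosome 11. HoxC spans 102921103 to 103036852 of chromosome 15 and HoxD 74668310 to 74765142 of chromosome 2. By paralogue group, 6 of 8 members of groups 1 to 3 were expressed, 11 of 15 of groups 4 to 8 and 7 of 16 of groups 9 to 13.

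The 15 members that were not expressed had at most 5 counts in any library, and 5 of them had none. *Hoxb1*, the 3′ end of HoxB, gave 1 (untreated) versus 0 (butyrate) counts on day 2, then 5 versus 4 on day 3. In HoxC the 4 members at the 5′ end, *Hoxc10*, *Hoxc11*, *Hoxc12* and *Hoxc13*, had no count in any library. *Hoxc9* was the only HoxC gene to pass the filter, with 6 (untreated) versus 4 (butyrate) counts on day 2, then 15 versus 13 on day 3. In HoxD the expressed members were the neighbours *Hoxd3*, *Hoxd4* and *Hoxd8*. *Hoxd1* on their 3′ side had at most 1 count, and on their 5′ side *Hoxd9* had at most 3, *Hoxd10* none, *Hoxd11* at most 3, *Hoxd12* at most 1 and *Hoxd13* between 2 and 5. Of paralogue group 13, *Hoxa13* thus had 300 to 558 counts and *Hoxb13* 13 to 88, whereas *Hoxc13* and *Hoxd13* were at or near 0.

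**Figure D1:**
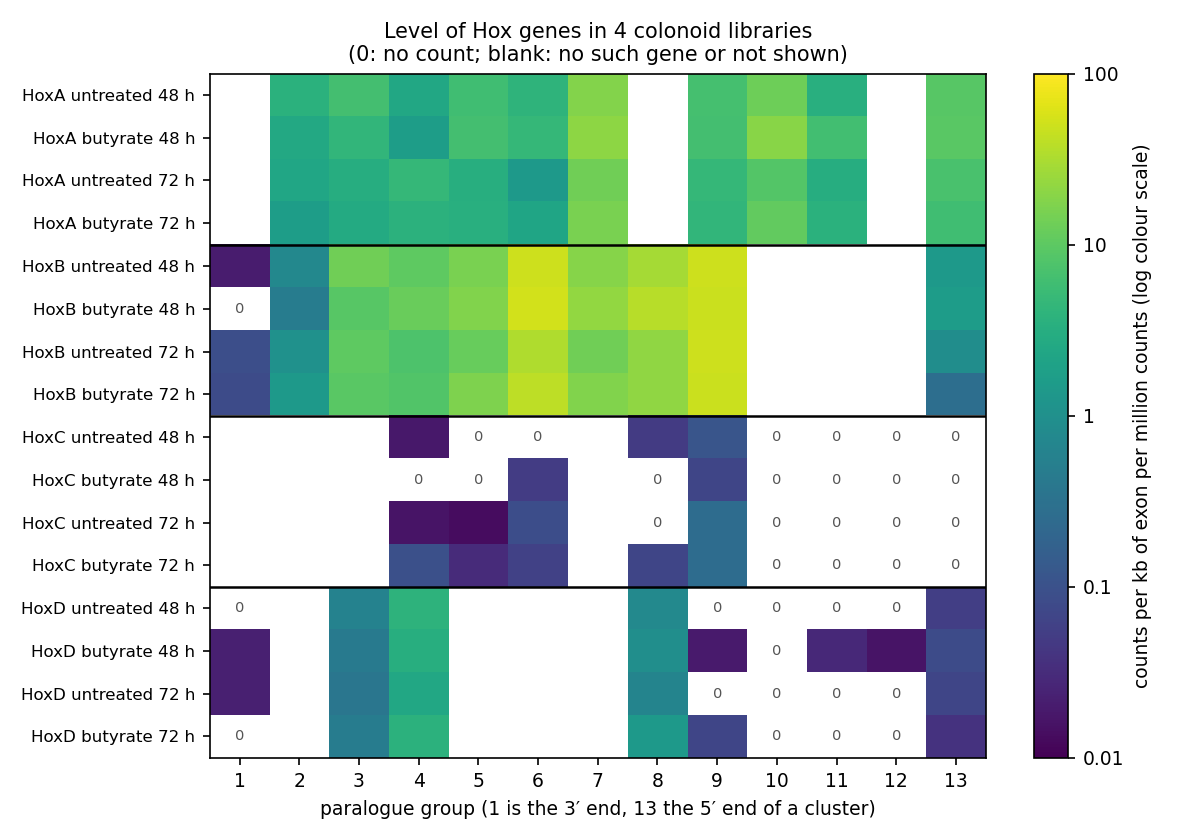
Level of 38 of the 39 Hox genes, in CPM per kb of exon on a logarithmic colour scale, with the paralogue group on the x axis and the 4 libraries of each cluster on the y axis. HoxA is filled wherever a gene is shown and HoxB reaches 53.7, whereas most HoxC and HoxD cells show 0 or values below 0.1.

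The Hox genes together took 701.7 (untreated) versus 745.3 (butyrate) CPM on day 2, then 540.2 versus 579.0 CPM on day 3. HoxB contributed 65.2% to 69% of these counts in the 4 libraries and HoxA 27.9% to 32.8%. HoxD contributed 1.94% to 2.97% and HoxC 0.0388% to 0.224%, from 7 to 27 counts. The total was lower in both libraries at 72 h than in either at 48 h.

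Levels were compared between genes as CPM per kb of annotated exon. *Hoxb9* had the highest mean level, 48.4, with 49, 47.9, 49.5 and 47.3 in untreated 48 h, butyrate 48 h, untreated 72 h and butyrate 72 h. *Hoxb6* followed with a mean of 44.2 and a range of 33 to 53.7, and *Hoxb8* with 27.3 and a range of 21.6 to 37.1. *Hoxb7*, *Hoxa7*, *Hoxb5* and *Hoxa10* had mean levels of 18.1, 16.9, 15.5 and 12.9. The highest levels thus lay in the middle of HoxB, in paralogue groups 6 to 9, with *Hoxa7* and *Hoxa10* the highest in HoxA. *Hoxb3*, *Hoxb4* and *Hoxa13* lay between 7.87 and 10.5. The members *Hoxa9*, *Hoxa5*, *Hoxa3*, *Hoxa11*, *Hoxd4*, *Hoxa4*, *Hoxa6* and *Hoxa2* had means from 5.42 down to 2.56.

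At the low end stood *Hoxb13* with a mean level of 1.06, *Hoxd8* with 0.94, *Hoxb2* with 0.938, *Hoxd3* with 0.467 and *Hoxc9* with 0.175. Neighbours in this order had overlapping ranges over the 4 libraries in 21 of 23 pairs, and *Hoxa2* over *Hoxb13* was a pair that did not overlap. Within each library, 7 of the 23 pairs stood in the same order in all 4, among them *Hoxb6* over *Hoxb8*, *Hoxb8* over *Hoxb7*, *Hoxb4* over *Hoxa13*, *Hoxa13* over *Hoxa9* and *Hoxb2* over *Hoxd3*. The other 16 pairs, *Hoxb9* and *Hoxb6* included, changed places in at least 1 library. The order also depends on the length used. Per kb of the longest annotated transcript, the means of *Hoxa3* (9.57) and *Hoxa9* (9.37) stood above that of *Hoxa13* (8.12). The levels of *Hoxd3* and *Hoxd4* are uncertain, since 53.1% and 39.1% of their exon bases are shared on the same strand with the gene *Gm28230*, between which the quantification could split reads. Antisense genes cover 52.9% of the exon bases of *Hoxb3*, 27.3% of *Hoxb2*, 35% of *Hoxa11* and 20.4% of *Hoxa7*. The sources used here do not say whether the quantification used strand, so antisense reads could not be told apart from those of the Hox gene.

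**Figure D2:**
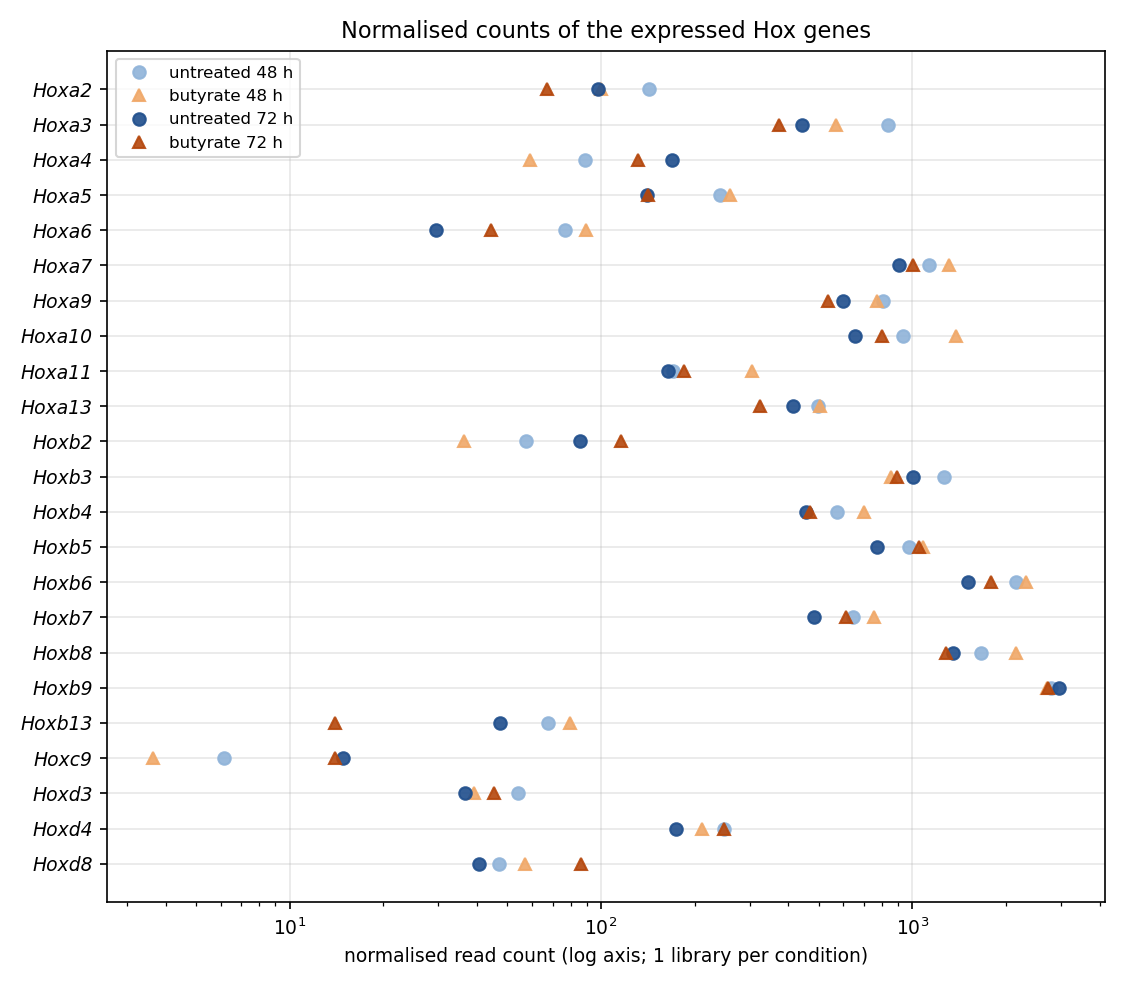
Normalised read count of 23 of the 24 expressed Hox genes on a logarithmic x axis, with 1 point for each library (circles untreated, triangles butyrate, light 48 h, dark 72 h). The points of *Hoxb9* lie close together, between 2705.5 and 2965.1, whereas those of *Hoxb13* run from 14 to 79.8 and those of *Hoxc9* from 3.63 to 14.8.

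The comparison of butyrate with untreated colonoids at 48 h asked which Hox genes differed with the fatty acid at the earlier time. None of the 24 expressed members was at least 2-fold apart, whereas 10.0% of the 13979 genes tested were (6.94% higher and 3.08% lower). The summed Hox counts were 15134 (untreated) versus 18042 (butyrate), which after scaling to library size factors was a difference of 0.08 (0.05 to 0.11) on the log2 scale. The median over the expressed members was 0.11, against -0.01 over all genes tested, with 14 members higher and 10 lower (13 and 11 after thinning to the smallest total). The counting interval lay above 0 for 8 members, below 0 for 5 and included 0 for 11, and over all genes tested it lay above 0 for 29.3% and below 0 for 31.3%.

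The largest difference at 48 h was in *Hoxa11*, which patterns the limb and the urogenital tract. It gave 167 (untreated) versus 337 (butyrate) counts on day 2, then 166 versus 171 on day 3, so that only the butyrate library at 48 h stood out. After scaling this was 0.84 (0.57 to 1.12) on the log2 scale at 48 h and then 0.17 (-0.14 to 0.49) at 72 h. Its neighbour *Hoxa10* gave 910 (untreated) versus 1518 (butyrate) counts on day 2, then 663 versus 742 on day 3. The difference of *Hoxa10* was 0.57 (0.45 to 0.69) on the log2 scale at 48 h and then 0.29 (0.14 to 0.45) at 72 h. *Hoxb8* gave 1627 (untreated) versus 2364 (butyrate) counts on day 2, then 1366 versus 1183 on day 3, which scaled to log2 differences of 0.37 (0.27 to 0.46) and -0.08 (-0.19 to 0.04). *Hoxb4*, known for its part in blood stem cell renewal, differed by 0.29 (0.13 to 0.45) at 48 h and by 0.04 (-0.16 to 0.23) at 72 h.

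The members at the 3′ end were mostly lower with butyrate at 48 h but not at 72 h, where 3 of 6 were lower with a median of -0.02 and 49.7% of all genes tested were lower. Of the 6 expressed members of paralogue groups 1 to 3, 5 were lower, with a median log2 fold change of -0.53, against 51.3% lower and a median of -0.01 over all genes tested, and their counts summed to 2315 (untreated) versus 1797 (butyrate). *Hoxa3*, which patterns the pharyngeal region, gave 814 (untreated) versus 626 (butyrate) counts on day 2, then 446 versus 346 on day 3. After scaling this was -0.55 (-0.70 to -0.40) on the log2 scale at 48 h and then -0.24 (-0.44 to -0.03) at 72 h. *Hoxb3* gave 1231 (untreated) versus 943 (butyrate) counts on day 2, then 1019 versus 827 on day 3, which scaled to log2 differences of -0.56 (-0.68 to -0.43) and -0.17 (-0.31 to -0.04). *Hoxa2*, which patterns the hindbrain and second pharyngeal arch, gave 139 (untreated) versus 110 (butyrate) counts on day 2, then 99 versus 62 on day 3, which scaled to log2 differences of -0.51 (-0.88 to -0.14) and -0.54 (-1.03 to -0.07). *Hoxb2*, another hindbrain gene, gave 56 (untreated) versus 40 (butyrate) counts on day 2, then 87 versus 107 on day 3, and differed by -0.64 (-1.28 to -0.05) and 0.42 (0.01 to 0.85). The summed difference of groups 1 to 3 was -0.54 (-0.63 to -0.45) on the log2 scale at 48 h and then -0.15 (-0.26 to -0.05) at 72 h, and *Hoxa3* and *Hoxb3* gave most of these counts.

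The members of the middle of the clusters were mostly higher with butyrate. Of the 11 expressed members of paralogue groups 4 to 8, 9 were higher at 48 h and 9 at 72 h, with medians of 0.21 and 0.25, where 48.7% and 50.3% of all genes tested were higher. Summed, they differed by 0.19 (0.15 to 0.24) on the log2 scale at 48 h and again by 0.19 (0.14 to 0.24) at 72 h. The higher members were not the same at both times, since *Hoxd4* was lower at 48 h (-0.23) and *Hoxb8* at 72 h (-0.08). Among those higher at 72 h, *Hoxa5* (0.01, -0.34 to 0.37) and *Hoxb4* (0.04, -0.16 to 0.23) were near 0, and *Hoxa5* was at -0.01 after thinning. *Hoxa4* was lower at both times, with 87 (untreated) versus 65 (butyrate) counts on day 2, then 171 versus 122 on day 3, which scaled to log2 differences of -0.58 (-1.08 to -0.11) and -0.36 (-0.70 to -0.01). *Hoxb5*, which is expressed in the developing lung and enteric nervous system, gave 954 (untreated) versus 1192 (butyrate) counts on day 2, then 777 versus 972 on day 3. After scaling this was 0.15 (0.02 to 0.27) on the log2 scale at 48 h and then 0.45 (0.31 to 0.59) at 72 h. *Hoxb6* gave 2107 (untreated) versus 2551 (butyrate) counts on day 2, then 1526 versus 1655 on day 3, which scaled to log2 differences of 0.10 (0.02 to 0.19) and 0.25 (0.15 to 0.35). *Hoxb7* differed by 0.22 (0.07 to 0.38) and 0.34 (0.16 to 0.52). *Hoxa7* differed by 0.21 (0.10 to 0.32) and 0.15 (0.02 to 0.29). Within these groups *Hoxd8* alone was past 2-fold, at 72 h. In paralogue groups 9 to 13, 4 of the 7 expressed members were higher at 48 h and 2 at 72 h, with medians of 0.03 and -0.12.

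At 72 h the comparison of butyrate with untreated colonoids found 2 of the 24 expressed members at least 2-fold apart, against 8.31% of all genes tested. *Hoxb13* was lower (3.78% of all genes were) and *Hoxd8* was higher (4.53% of all genes were). The median over the expressed members was 0.08, against 0.00 over all genes tested, with 14 higher and 10 lower (13 and 11 after thinning to the smallest total). The summed Hox counts were 12738 (untreated) versus 12038 (butyrate), which scaled to 0.05 (0.01 to 0.08) on the log2 scale.

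*Hoxb13*, the 5′ end of HoxB and a gene of the hindgut and prostate, gave 66 (untreated) versus 88 (butyrate) counts on day 2, then 48 versus 13 on day 3. The butyrate library at 72 h was the low one, and the other 3 lay between 48 and 88. After scaling this was 0.24 (-0.23 to 0.73) on the log2 scale at 48 h and then -1.69 (-2.76 to -0.85) at 72 h. *Hoxa13*, the 5′ end of HoxA and a gene of the hindgut and limb, gave 486 (untreated) versus 558 (butyrate) counts on day 2, then 419 versus 300 on day 3. The difference of *Hoxa13* was 0.03 (-0.15 to 0.21) on the log2 scale at 48 h and then -0.35 (-0.57 to -0.14) at 72 h. Both of these 5′ genes were lowest in the butyrate library at 72 h after scaling. In all, 6 of the 24 expressed members were, and so were 24.9% of all genes tested. The 3′ members *Hoxa2* and *Hoxa3* were among the 6. *Hoxa9* and *Hoxb9* differed little, by -0.06 (-0.20 to 0.08) and -0.04 (-0.12 to 0.04) at 48 h and by -0.15 (-0.33 to 0.02) and -0.12 (-0.19 to -0.04) at 72 h.

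*Hoxd8* gave 46 (untreated) versus 63 (butyrate) counts on day 2, then 41 versus 80 on day 3. It was highest in the butyrate library at 72 h, and the scaled differences were 0.28 (-0.29 to 0.86) on day 2 and 1.08 (0.53 to 1.67) on day 3 (log2). *Hoxd4* gave 243 (untreated) versus 233 (butyrate) counts on day 2, then 176 versus 230 on day 3, and differed by -0.23 (-0.50 to 0.03) and 0.51 (0.23 to 0.81). *Hoxd3* gave 53 (untreated) versus 43 (butyrate) counts on day 2, then 37 versus 42 on day 3, and differed by -0.46 (-1.09 to 0.13) and 0.30 (-0.36 to 0.99). The interval of *Hoxd3* included 0, and *Hoxd3* and *Hoxd4* share exon bases with each other and with *Gm28230*, so they are not separate measurements. The summed HoxD counts were 345 versus 350 on day 2, then 259 versus 357 on day 3, which scaled to log2 differences of -0.15 (-0.37 to 0.07) and 0.59 (0.36 to 0.83). The HoxA sum differed by 0.12 (0.07 to 0.18) and 0.00 (-0.07 to 0.07), and the HoxB sum by 0.07 (0.03 to 0.11) and 0.05 (0.00 to 0.09).

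**Figure D3:**
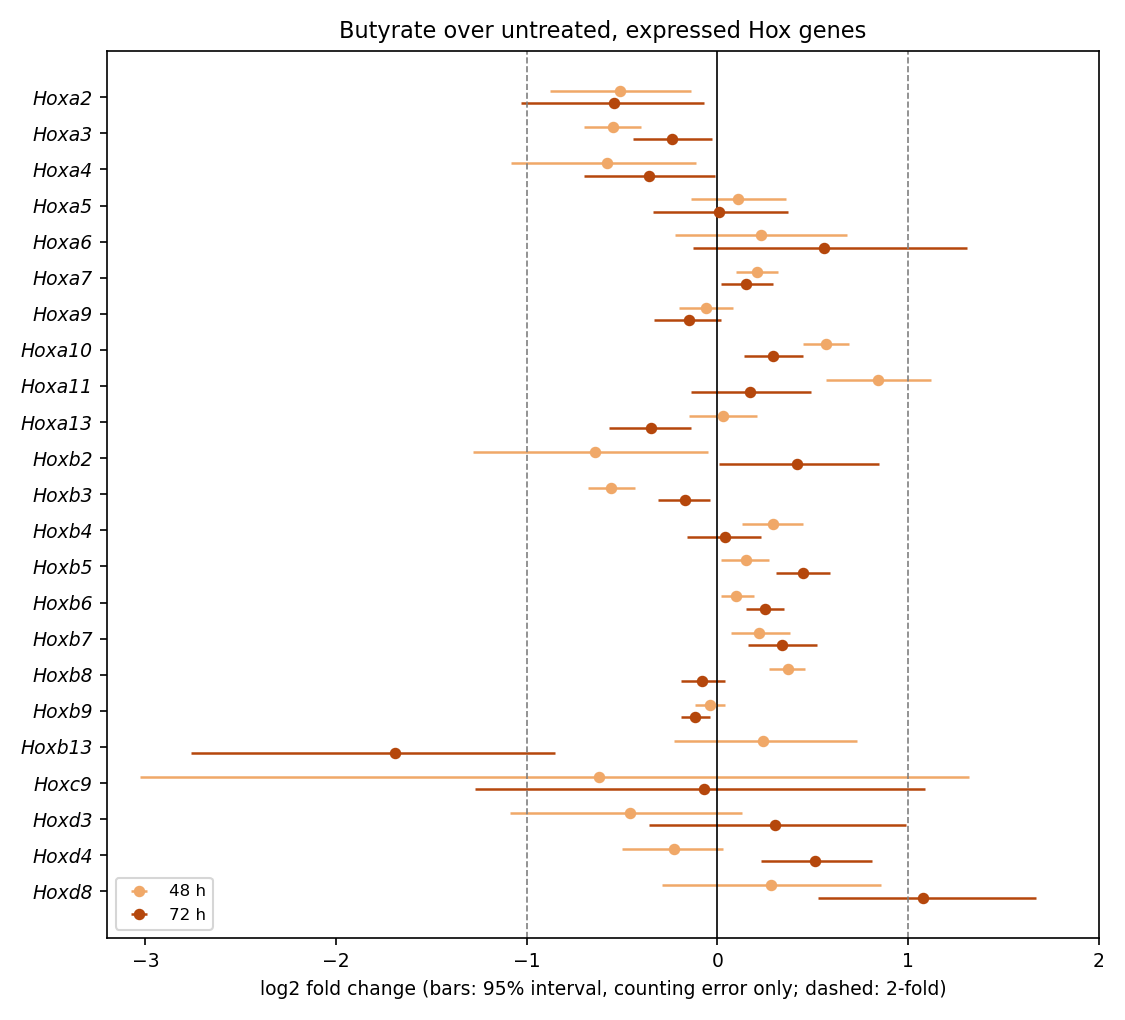
Log2 fold change of butyrate over untreated for 23 of the 24 expressed Hox genes at 48 h (light) and 72 h (dark), with bars for the 95% counting interval and dashed lines at 2-fold. Only *Hoxb13* (-1.69) and *Hoxd8* (1.08) lie past a dashed line, both at 72 h, and *Hoxa2*, *Hoxa3*, *Hoxa4* and *Hoxb3* lie left of 0 at both times.

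No Hox gene was at least 2-fold apart in the same direction at both times, against 3.43% of all genes tested. By sign alone, 18 of the 24 expressed members had the same direction at 48 h and 72 h, of which 11 were higher and 7 lower at both times, and 61.7% of all genes tested had the same direction. The comparisons at 48 h and at 72 h used different libraries. Both counting intervals lay above 0 for 5 members (*Hoxa7*, *Hoxa10*, *Hoxb5*, *Hoxb6* and *Hoxb7*) and below 0 for 4 (*Hoxa2*, *Hoxa3*, *Hoxa4* and *Hoxb3*), against 12.9% and 13.6% of all genes tested.

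The difference between 48 h and 72 h without butyrate was followed in the untreated arm. With 1 library at each time, time and variation between cultures or libraries cannot be told apart. Of the 24 expressed members, 20 were lower at 72 h, against 49.4% of all genes tested, and the median log2 fold change was -0.38 against 0.00. The summed log2 fold change was -0.44 (-0.51 to -0.38) for HoxA, -0.46 (-0.70 to -0.23) for HoxD and -0.23 (-0.27 to -0.19) for HoxB. At least 2-fold differences were found in 2 members, against 4.49% of all genes. *Hoxa6*, which had 75 counts at 48 h and 30 at 72 h, was lower with a log2 fold change of -1.34 (-2.03 to -0.74), where 1.82% of all genes were 2-fold lower. *Hoxc9*, with 6 and 15 counts, was higher by 1.15 with an interval of -0.18 to 2.92 that included 0, where 2.66% of all genes were 2-fold higher. Since *Hoxc9* passed the filter only through its 72 h libraries, its higher value at 72 h in either arm follows from the filter and nothing is read from it. The 4 members higher at 72 h were *Hoxa4*, *Hoxb2*, *Hoxb9* and *Hoxc9*.

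In the butyrate arm 5 members were at least 2-fold apart between 48 h and 72 h, against 8.62% of all genes tested. These comparisons share each library with a comparison of butyrate and untreated colonoids, so they are not independent of it. Higher at 72 h were *Hoxb2*, with 40 and 107 counts and a log2 fold change of 1.64 (1.13 to 2.23), *Hoxa4*, with 65 and 122 counts and 1.15 (0.71 to 1.62), and *Hoxc9*, whose direction the filter fixed, with 4 and 13 counts and 1.70 (0.26 to 4.03), where 3.67% of all genes were 2-fold higher. Lower were *Hoxb13*, with 88 and 13 counts and -2.43 (-3.47 to -1.66), and *Hoxa6*, with 99 and 41 counts and -1.0 (-1.58 to -0.48), where 4.95% of all genes were 2-fold lower. *Hoxa6* lay at the threshold and was under 2-fold with TMM factors, total counts without mitochondrial genes, a pseudocount of 5 or thinned counts, which left 4 members. The median over the expressed members was -0.45, with 16 of 24 lower, against -0.01 and 51.3% lower over all genes tested. In all, 16 members were lower at 72 h in both arms and 4 were higher in both, against 29.7% and 28.9% of all genes tested, although *Hoxb9* was at -0.02 in the butyrate arm with total count scaling. The 4 that differed in direction between the arms were *Hoxb3*, *Hoxd3*, *Hoxd4* and *Hoxd8*.

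**Figure D4:**
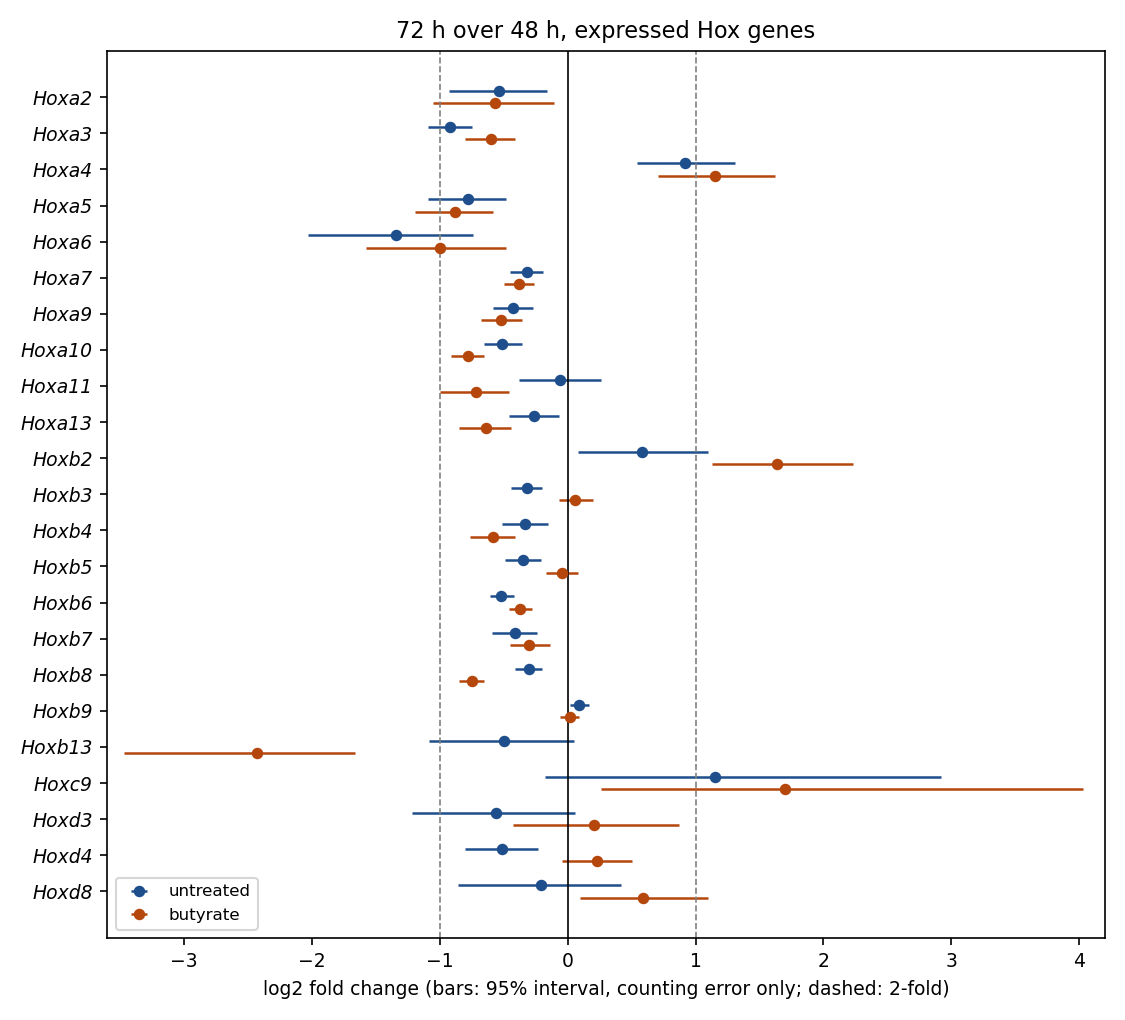
Log2 fold change of 72 h over 48 h for 23 of the 24 expressed Hox genes in untreated (blue) and butyrate-treated (brown) colonoids, with bars for the 95% counting interval and dashed lines at 2-fold. Most points lie left of 0 in both arms, *Hoxa4*, *Hoxb2*, *Hoxc9* and, just past the line, *Hoxb9* (0.09 and 0.02) lie right of 0 in both, and *Hoxb13* in the butyrate arm lies farthest left at -2.43.

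Hox proteins bind DNA together with TALE homeodomain cofactors of the Meis, Pbx and Pknox families. Of the 9 cofactor genes 7 passed the filter, and 1 was at least 2-fold higher with butyrate at 48 h and 1 at 72 h, against 6.94% and 4.53% of all genes tested. *Meis2* gave 11 (untreated) versus 26 (butyrate) counts on day 2, which scaled to 1.01 (0.00 to 2.23). *Meis3* gave 88 (untreated) versus 144 (butyrate) counts on day 2, then 104 versus 247 on day 3, which scaled to log2 differences of 0.53 (0.15 to 0.94) and 1.37 (1.04 to 1.72).

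Among 28 Polycomb and Trithorax genes, whose products silence and maintain Hox expression, all passed the filter and none was at least 2-fold apart at either time, against 10.0% of all genes tested at 48 h and 8.31% at 72 h. Their medians were -0.18 at 48 h and 0.09 at 72 h, against -0.01 and 0.00 over all genes tested. Retinoic acid activates 3′ Hox genes in the embryo, and of the 12 genes of its receptors and response 8 passed. *Rarb*, the receptor gene that retinoic acid itself induces, gave 14 (untreated) versus 61 (butyrate) counts on day 2, then 28 versus 52 on day 3, which scaled to log2 differences of 1.88 (1.10 to 2.90) and 1.00 (0.33 to 1.74). *Cyp26b1*, which degrades retinoic acid, differed by 1.32 (1.00 to 1.67) and 1.04 (0.66 to 1.45), and *Stra6*, a retinol carrier receptor, by 1.37 (0.95 to 1.85) and 0.44 (-0.04 to 0.94). At 72 h *Rarb* was just short of 2-fold. The other 5 tested genes of this list were less than 2-fold apart at both times. The list thus held 3 genes at least 2-fold higher at 48 h and 1 at 72 h, where 6.94% and 4.53% of all genes tested were.

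Of 13 other genes of position along the gut in the table, 8 passed the filter, and 1 was at least 2-fold higher with butyrate at 48 h and 1 higher and 1 lower at 72 h. Of all genes tested, 6.94% were higher at 48 h, and 4.53% were higher and 3.78% lower at 72 h. The intestinal factor *Cdx2* gave 5085 (untreated) versus 6256 (butyrate) counts on day 2, then 4605 versus 3758 on day 3. It was less than 2-fold apart with butyrate, at 0.13 and -0.16. *Gata4*, a factor of the proximal small intestine, was low, with 23 versus 98 counts on day 2 and 61 versus 155 on day 3, and was higher with butyrate by 1.87 (1.25 to 2.64) and 1.46 (1.04 to 1.93). *Insl5*, a hormone gene of the distal colon, gave 266 (untreated) versus 235 (butyrate) counts on day 2, then 302 versus 99 on day 3, which scaled to log2 differences of -0.35 (-0.61 to -0.09) and -1.47 (-1.82 to -1.15).

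Of the genes that flank the clusters, 10 of 13 in the table passed the filter, and *Ttll6* was the only one at least 2-fold apart, at both times, where 10.0% of all genes tested were at 48 h and 8.31% at 72 h. *Ttll6* lies on the 5′ side of *Hoxb13* on chromosome 11, from 96133786 to 96165451, and gave 43 (untreated) versus 125 (butyrate) counts on day 2, then 66 versus 27 on day 3. After scaling this was 1.35 (0.86 to 1.90) on the log2 scale at 48 h and then -1.13 (-1.86 to -0.49) at 72 h, so that it and *Hoxb13* were both highest in the butyrate library at 48 h and lowest in the butyrate library at 72 h. After scaling, 9.51% of all genes tested had their highest and lowest libraries in this order, *Car1* and *Krt20* among them. *Evx1*, beside *Hoxa13*, gave 93 (untreated) versus 131 (butyrate) counts on day 2, then 71 versus 71 on day 3, and differed by 0.32 (-0.07 to 0.72) and 0.13 (-0.37 to 0.62). *Evx2*, beside the near-silent *Hoxd13*, had at most 2 counts in any library.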

How the data were processed

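Gene expression was measured by poly-A RNA-seq (Illumina TruSeq chemistry) in 4 colonoid libraries, 1 per condition, and groups came from the sample titles. The authors deposited counts per gene. According to the methods and the submitters' processing notes, transcript abundances were quantified with kallisto 0.44.0 on GRCm38.p6 and summed to genes with tximport, so the whole-number counts are rounded estimates with no normalisation and no filter. Reads of overlapping genes can be shared out between them, and strand handling is not given in the sources used here. In the table, 26 row names had been turned into dates and 2 names were listed more than once.

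A gene was tested if 2 or more libraries held over 10 counts of it, which 13979 did. Size factors came from DESeq2 1.42.0 and TMM factors from edgeR 4.0.16 in R 4.3.3. Other steps used scipy 1.17.1, pandas 2.3.3 and numpy 2.4.6 in Python 3.11.15, and plots were drawn with matplotlib 3.10.9. Log2 fold changes used a pseudocount of 1, and a difference of at least 2-fold counted as called. Intervals at the 95% level are exact Clopper-Pearson intervals on the pair of counts. No molecular identifiers were read, so reads may repeat a molecule, and both the intervals and the limit of 3 counts describe counting error alone. The calculation of fold changes and intervals was checked on simulated counts with counting error only. Since that is the error the intervals assume, the check does not cover variation between cultures or libraries. Exon lengths and positions came from the GENCODE M21 annotation of GRCm38, with all 39 members matched, and upstream sequences from RefSeq.

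All 39 Hox genes are members. Those that passed the filter are given with counts, and other genes were named only from lists of Hox cofactors, gut position genes, cluster neighbours, Polycomb and Trithorax genes, retinoic acid genes and cell type markers. The members and lists were chosen with earlier results of these data known. Besides those described in the text, 6 neuron and glia markers summed to 93 to 132 counts. Alternatives were other scalings, a pseudocount of 5, thinning to the smallest total, other fold and expression thresholds, other lengths and cluster sums without their highest member. Hox cluster noncoding RNAs, *Prac1* and protein sequences were not analysed here. The values of 1 Hox gene and of some genes on the lists are not reported here, although counts and sums over groups include them.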

Additional observations from a re-analysis of the deposited data

Results flagged for a closer look

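Because conditions were not replicated, the contrasts between effects given here were not tested. Each gene had a log2 difference of opposite sign in 2 comparisons, and each counting interval left out 0. With butyrate, *Hoxb2* was lower at 48 h by -0.64 and higher at 72 h by 0.42, from at most 107 counts in a library, and antisense exons cover 27.3% of its exon bases. Between 48 h and 72 h the HoxD sum was at -0.46 in untreated and at 0.28 in butyrate-treated cultures, and 39.1% of the exon bases of *Hoxd4*, which holds most HoxD counts, are shared with *Gm28230*. With butyrate, *Ttll6*, beside the 5′ end of HoxB, was at 1.35 at 48 h and -1.13 at 72 h, and the intestinal factor *Cdx2* was at 0.13 and -0.16. The colonocyte gene *Car1* was at 1.14 and -0.88 with butyrate at the 2 times, and at 0.76 and -1.25 between the times in untreated and butyrate-treated cultures. The stem cell gene *Lgr5* was at -0.94 and 0.79 with butyrate, and at -0.58 and 1.15 between the times. *Krt20* was at 0.31 and -0.74 with butyrate, and at 0.11 and -0.94 between the times. For *Car1*, *Lgr5* and *Krt20* both pairs of values come from the same 4 libraries and are not separate results. Of the listed genes only some were screened by this rule, and the share of all genes that meet it was not computed.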

How the results depend on the processing

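No paired analysis was run because conditions were not replicated, and for the same reason no library could be left out within a condition. The number of Hox genes expressed was between 21 and 34 of 39 over its alternatives, 1 of which (more than 10 counts in at least 3 libraries, 23 genes) was added after seeing the data. With no filter, the number at least 2-fold apart with butyrate was 5 at 48 h and 5 at 72 h, and between 48 h and 72 h it was 5 untreated and 11 with butyrate, where the added genes had few counts. At 1.5-fold the numbers were 3 at 48 h (*Hoxa11* higher, *Hoxb2* and *Hoxc9* lower), 5 between the untreated and 13 between the butyrate libraries. The untreated number fell from 2 to 1, without *Hoxc9*, with a pseudocount of 5, with thinned counts, where the mean of normalised counts had to reach 50 and with a counting interval that left out 0. The butyrate number fell from 5 to 4, without *Hoxa6*, with TMM factors, total counts without mitochondrial genes, a pseudocount of 5 and thinned counts, and without *Hoxc9* where the mean had to reach 50. *Hoxb13* and *Hoxd8* were the 2 genes past 2-fold at 72 h under all other settings.

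Total count scaling gave the HoxB sum 0.10 with butyrate at 72 h and -0.31 between the untreated libraries, and the HoxA sum -0.52 between the latter. The medians of all genes moved by at most 0.08. Without *Hoxb9* the HoxB sum was 0.11 and 0.12 with butyrate at 48 h and 72 h, and -0.37 (untreated) and -0.36 (butyrate) between the times. Without its highest member, *Hoxa7*, the HoxA sum was -0.63 between the butyrate libraries. Without *Hoxd4* the HoxD sum with butyrate at 48 h was 0.03 in place of -0.15. Of 480 single-gene values under other scalings, pseudocount or thinning, 479 stayed within their counting interval. The order by level kept all 5 highest genes with the longest transcript as length and 4 with no length.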
